A study of Mus musculus with 24 samples.

Results

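Interferon-stimulated genes were followed in the lungs of mice that breathed ozone (O3), an oxidant gas of photochemical smog. The list held 39 genes by name, not by a threshold on their response, though earlier results of these data were known when it was chosen. A gene was taken through the probe set annotated to it alone, and through the one with the highest mean where there were several. By this rule 35 of the 39 genes had a probe set, among 12372 genes of the array with a probe set of their own. Isg15, Xaf1, Ifi44 and Ly6e had none and were not analysed here. Mx2, an antiviral GTPase, was below the 20th percentile of signal on every array, at 12.4 to 39.6, and was not tested, so 34 genes were tested among 11586. The lungs came from male mice of 6 to 8 weeks, either wild type (Tnfr+/+, C57BL/6J) or lacking both receptors of tumor necrosis factor (Tnfr-/-, B6.129S with Tnfrsf1a and Tnfrsf1b disrupted in every cell). Mice of each genotype breathed filtered air in a separate chamber, or 0.3 ppm O3 without pause for 24, 48 or 72 h, which made 8 groups of 3 mice. Total RNA of the homogenized lung tissue of each mouse was hybridised to 1 Affymetrix MOE430A array, a 3'-biased array of 25-mer probes, and the value of a probe set is its signal after quantile normalization over the 24 arrays. The knockout carries DNA of strain 129 around the disrupted genes and was compared with purchased C57BL/6J mice rather than littermates, so that the loss of the receptors and other differences between the lines cannot be told apart. In RNA of whole lung, fewer cells of a type and less RNA per cell cannot be told apart either.

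Interferons are secreted proteins that warn cells of infection. Type I interferons act through a receptor whose kinases activate a complex of STAT proteins and IRF9, which binds the interferon-stimulated response element (ISRE) of its target genes, while interferon gamma, made mainly by NK and T cells, acts through a STAT homodimer that binds the gamma-activated site (GAS). In lung the products block viral replication, sense viral RNA, attack vacuoles of intracellular bacteria and prepare peptides for display to T cells. TNF receptors signal to NF-kB, which shares some of these target genes. The 34 genes are described by role. There were 14 antiviral effectors, 9 sensors, signal transducers and feedback regulators, 6 interferon-inducible GTPases and 5 genes of antigen processing.

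The DNA before the start of 3 genes is shown first, because they were called lower in O3 or in Tnfr-/- mice and are in the reference table of promoters. The 250 bases before the start were taken from RefSeq (GRCm38.p6) and are written 5′ to 3′ on the strand of the gene, with matches to an ISRE core in capitals. Rsad2 lies on the minus strand (chr12:26456453-26456702), Psmb9 on the minus strand (chr17:34187331-34187580) and Gbp2 on the plus strand (chr3:142620413-142620662).
Rsad2: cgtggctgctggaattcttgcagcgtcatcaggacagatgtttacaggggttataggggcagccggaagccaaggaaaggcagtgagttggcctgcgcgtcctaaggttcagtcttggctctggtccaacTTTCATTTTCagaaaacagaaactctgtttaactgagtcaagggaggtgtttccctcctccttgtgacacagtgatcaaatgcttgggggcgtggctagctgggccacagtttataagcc
Psmb9: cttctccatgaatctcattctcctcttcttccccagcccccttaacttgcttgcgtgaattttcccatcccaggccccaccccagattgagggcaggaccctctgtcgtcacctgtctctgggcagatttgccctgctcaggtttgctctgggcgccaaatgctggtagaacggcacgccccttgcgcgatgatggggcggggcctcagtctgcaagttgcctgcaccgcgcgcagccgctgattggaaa
Gbp2: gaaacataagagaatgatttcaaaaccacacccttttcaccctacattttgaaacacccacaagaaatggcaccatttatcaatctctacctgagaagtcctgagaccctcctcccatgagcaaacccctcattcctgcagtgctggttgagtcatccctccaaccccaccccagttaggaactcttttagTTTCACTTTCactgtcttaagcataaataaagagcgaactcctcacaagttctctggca

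The ISRE core searched was TTTC, any 2 bases and TTTC again, on both strands. It begins 120 bases before the start of Rsad2 and 59 bases before that of Gbp2, and these letters are not in the Psmb9 window. Of the 27 tested genes with a promoter in the table, 11 held the ISRE core (40.7%), against 3.04% of 27025 promoters of the same length. They were Ifit1, Ifit3, Oas1a, Rsad2, Bst2, Stat2, Socs1, Gbp2, Gbp3, Irgm1 and Igtp. The GAS, TTCNNNGAA, was in 8 of the 27 (29.6%) and in 7.18% of all. The NF-kB consensus was in 3 of the 27 (11.1%), Ifit2, Ifitm3 and Irf1, and in 4.78% of all. None of the matches in the 3 printed windows overlapped another motif. The matches describe letters only.

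The 24 arrays had the same scale, with median signals of 213 to 247. Tnfrsf1b, one of the disrupted genes, read 356 to 525 on the Tnfr+/+ arrays and 151 to 266 on the Tnfr-/- arrays, while Tnfrsf1a overlapped between the genotypes. The lung epithelial markers Sftpc and Scgb1a1 read 25300 to 32100 on all 24 arrays. Quantile normalization largely sets the values at the top of the scale, so this range is no check of epithelial content. One array, Tnfr+/+ O3 72 h replicate 1, stood apart over all genes, its correlations to the others averaging 0.926 where the rest averaged 0.942 to 0.954, and a Gapdh 3'/5' ratio of 4.45 against 0.89 to 1.74.

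A different mouse stood apart in the interferon-stimulated genes. Tnfr-/- O3 72 h replicate 3 had the highest signal of all 24 arrays for 9 of the 34 genes (Ifit3, Zbp1, Irf1, Gbp2, Irgm1, Igtp, Iigp1, Ifi47 and Psmb8), against 4.15% of all probe sets tested, and the lowest for none. It was the highest of its group for 29 of the 34, a count not made over all probe sets. Its mean correlation to the other arrays was 0.949 and its Gapdh 3'/5' ratio 1.01, both inside the range of the rest. The called genes and the median over the 34 genes are therefore given with and without this mouse for Tnfr-/- mice at 72 h and for the comparisons that pool them. This mouse was picked by its values in these same genes. Where those were high, leaving it out lowers the difference and mostly the spread as well. Calls and p-values without it are therefore descriptive and not independent support.

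The GTPases differed most in this mouse. Gbp2, a guanylate-binding protein that acts on bacterial vacuoles, read 2680 there, 612 and 477 in the other 2 mice of the group and at most 1550 on the other 23 arrays. Igtp, an immunity-related GTPase, read 3260 against 621 and 517, with 2540 the highest elsewhere. Ifi47, of the same family, read 2230 against 589 and 556, with 1660 the highest elsewhere. The 6 GTPases were 1.98 to 5.73 times the mean of the other 2 mice of the group, with a median of 3.72. The median was 2.39 for antigen processing, 1.4 for antiviral effectors and 1.37 for sensors and transducers.

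Other genes known to be induced by interferon gamma were high in the same mouse, and were looked up after its values were seen. Irgm2 read 1700 there against 257 and 246 in the other 2 mice. Cd274, a checkpoint ligand, read 609 against 186 and 148, and Ido1, which breaks down tryptophan, read 240 against 51.8 and 66.5. The transcript of interferon gamma itself read 28 against 35.4 and 24.5. These signals are within the low range (12.4 to 39.6) at which Mx2 was not tested, so they do not show whether it differed. Gzma, a granzyme of cytotoxic lymphocytes, read 965 against 217 and 281, and the 9 tested markers of NK and cytotoxic cells averaged -0.25 on the log2 scale relative to Tnfr+/+ air, against -0.94 and -1.09. The part of these cells in the result was not tested.

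**Figure D1:**
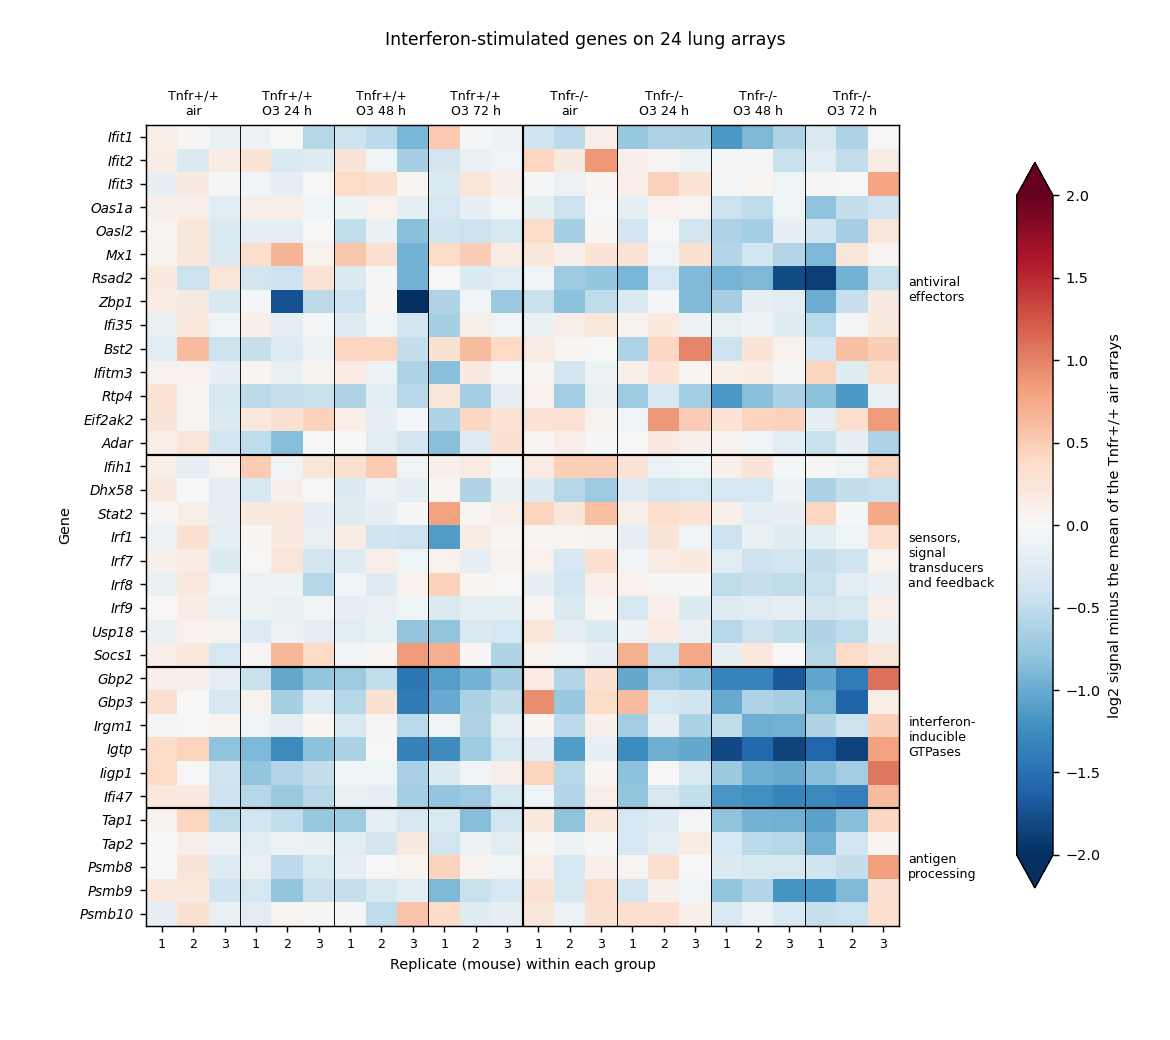
Heat map of the 34 tested genes (rows, by role) on the 24 arrays (columns, by group and replicate), coloured by log2 signal minus the mean of the Tnfr+/+ air arrays, with colours ending at -2 and 2. The GTPases are mostly below the air level in O3, most evenly in Tnfr-/- mice at 48 h, and above it in Tnfr-/- O3 72 h replicate 3.

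The spread between mice differed by role. The pooled within-group SD on the log2 scale had a median of 0.52 over the GTPases, 0.32 over antigen processing, 0.31 over antiviral effectors and 0.22 over sensors and transducers, against 0.28 over all probe sets tested. Without Tnfr-/- O3 72 h replicate 3 the median was 0.32 for the GTPases and stayed at 0.28 for all probe sets. The group means, as signals, spanned a ratio of highest to lowest of 1.17 (Irf9) to 3.57 (Igtp), with a median of 1.5 over the 34 genes. Tnfr+/+ air had the highest group mean for 13 genes and Tnfr-/- air for 7. The order of the groups was not counted over all probe sets, nor was the order of mice within a group. The air groups were not even. Tnfr-/- air replicate 2 was the lowest of its group for 24 of the 34 genes, including all 6 GTPases and all 5 genes of antigen processing, and Tnfr+/+ air replicate 3 was the lowest of its group for 25.

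The first question was whether O3 moved these genes in wild-type lungs. No gene passed the threshold (limma, Benjamini-Hochberg over all 20537 probe sets, adjusted p under 0.05) at 24, 48 or 72 h. The background of lower calls was 0.0146%, 0.273% and 1.26% of all probe sets, and of higher calls 0.0682%, 0.901% and 1.84%. At an unadjusted p under 0.05 there were 0, 2 (Ifit1 and Usp18) and 1 (Usp18) lower genes, with backgrounds of 2.71%, 5.57% and 9.28%, and 0 higher genes each time, with backgrounds of 3.18%, 6.04% and 8.6%. An ordinary t-test at the methods' threshold of 0.01 counted 0, 0 and 1 (Gbp2) of the 34, against 1.44%, 2.61% and 3.35% of all probe sets, and 0 of the 34 after adjustment. The median of the 34 log2 differences was -0.14 at 24 h, -0.19 at 48 h and -0.20 at 72 h, against 0, -0.01 and -0.02 over all probe sets. These 3 comparisons share the Tnfr+/+ air arrays. The median 95% interval of a gene, unadjusted, reached 0.53 to either side of its log2 difference. Larger differences of single genes also went uncalled, such as Gbp2 at 72 h (-0.91).

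The 6 GTPases were all below their air mean at each time in wild-type mice, with median log2 differences of -0.62, -0.44 and -0.66. At 24 h, the 3 O3 arrays were all below the 3 air arrays for 6 of the 34 genes (17.6%, background 6.07%): Rtp4, Gbp2, Igtp, Iigp1, Ifi47 and Tap2. At 48 h this held for 2 genes, Ifit1 and Gbp2 (5.88%, background 8.33%), and at 72 h for 6, Oasl2, Irf9, Usp18, Gbp2, Gbp3 and Irgm1 (17.6%, background 10.2%). No gene had all 3 O3 arrays above the air arrays at any time (backgrounds 5.84%, 8.32% and 9.53%). The lowest log2 differences at 24 h were those of Igtp (-1.0, SE 0.52), Zbp1 (-0.77, SE 0.62) and Gbp2 (-0.75, SE 0.43), and the highest those of Mx1 (0.38), Socs1 (0.37) and Eif2ak2 (0.33). At 48 h they were Zbp1 (-1.27), Gbp2 (-0.89) and Igtp (-0.66), and Socs1 (0.28), Ifih1 (0.25) and Ifit3 (0.25). At 72 h they were Gbp2 (-0.91), Igtp (-0.78) and Gbp3 (-0.70), and Bst2 (0.45), Mx1 (0.34) and Stat2 (0.32). Zbp1, a sensor of Z-form nucleic acid, read 18.1 in Tnfr+/+ O3 48 h replicate 3 and 144 and 197 in the other 2 mice, and its second probe set went the other way in the average of late O3 (0.33 against -0.33).

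In Tnfr-/- lungs the same comparisons again gave 0 called genes at 24, 48 and 72 h, with backgrounds of 0.375%, 1.24% and 1.36% lower and 0.726%, 2.60% and 2.60% higher. The lowest adjusted p was 0.41, 0.078 and 0.13. At 48 h, 15 of the 34 genes were lower at an unadjusted p under 0.05 (44.1%, background 8.95%), and 0 at 24 h (background 6.21%) and 4 at 72 h (Ifit2, Oas1a, Tap2 and Psmb9, background 8.52%). None was higher at that p at the 3 times, with backgrounds of 6.3%, 9.45% and 8.49%. The ordinary t-test at 0.01 counted 0, 4 (Mx1, Gbp2, Ifi47 and Tap2, 11.8%) and 0 of the 34, against 4.38%, 8.88% and 6.24% of all probe sets, and 0 of the 34 after adjustment. The 34 log2 differences had a median of -0.07 at 24 h, -0.39 at 48 h and -0.22 at 72 h, against -0.01, -0.03 and -0.03 over all probe sets. They share the Tnfr-/- air arrays.

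The group of Tnfr-/- mice at 48 h had the lowest mean of the 8 groups for 20 of the 34 genes, a count not made over all probe sets. All 3 of its arrays were below the 3 air arrays for 14 genes (41.2%, background 15.9%) and above them for none (background 15.6%). These were the antiviral Ifit1, Ifit2, Mx1 and Rsad2, the transducers and feedback regulators Stat2, Irf1, Irf8 and Usp18, the GTPases Gbp2, Igtp, Iigp1 and Ifi47, and Tap2 and Psmb9 of antigen processing. The GTPases had a median log2 difference of -1.0 with all 6 below 0. The lowest differences were those of Gbp2 (-1.41, SE 0.43, limma adjusted p = 0.078), Igtp (-1.25, SE 0.52) and Ifi47 (-1.06, SE 0.37). The highest were Dhx58 (0.27), Ifitm3 (0.24) and Zbp1 (0.24).

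The count at 48 h depended on a mouse of another group through the shared estimate of the spread. With Tnfr-/- O3 72 h replicate 3 left out of the fit, Gbp2 (limma adjusted p = 0.0035), Ifi47 (0.0068) and Psmb9 (0.022) were called lower in Tnfr-/- mice at 48 h, with the same differences and a background of 1.27%. With the 6 arrays of the groups alone, 1 gene was called, Mx1.

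At 24 h in Tnfr-/- mice 3 genes lay wholly below air, Ifit1, Ifit2 and Gbp2 (8.82%, background 11.1%), and Ifit3 lay wholly above it (2.94%, background 10.8%). The lowest log2 differences were Gbp2 (-0.79), Igtp (-0.59) and Ifit2 (-0.48), and the highest Socs1 (0.40), Ifit3 (0.31) and Ifitm3 (0.29). At 72 h 2 genes lay wholly below air, Ifit2 and Adar (5.88%, background 13.4%), and none wholly above it (background 12.6%). The lowest were then Gbp3 (-0.97), Psmb9 (-0.69) and Ifit2 (-0.67), and the highest Ifitm3 (0.31), Ifit3 (0.30) and Bst2 (0.17). Without replicate 3 the median over the 34 genes at 72 h went from -0.22 to -0.42, and 3 genes were called lower, with a background of 0.657%. They were Gbp2 (log2 difference -1.18, limma adjusted p = 0.033), Ifi47 (-1.14, 0.011) and Psmb9 (-1.14, 0.021). That fit rests on 2 mice at 72 h.

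A further comparison set O3 at 48 and 72 h against air with the genotypes averaged. There were 3 genes called lower and 0 higher (8.82% lower, background 5.65%, and 0 higher, background 6.51%). They were Usp18, Gbp2 and Psmb9. In all 29 of the 34 genes had a log2 difference below 0, with a median of -0.25 against -0.03 over all probe sets, and 14 were lower at an unadjusted p under 0.05 (41.2%, background 13.7%) and 0 higher (background 12.4%). The median was -0.70 for the GTPases (6 of 6 below 0), -0.31 for antigen processing (5 of 5), -0.24 for antiviral effectors (10 of 14) and -0.10 for sensors and transducers (8 of 9). Without Tnfr-/- O3 72 h replicate 3 these medians were -0.85, -0.37, -0.24 and -0.14.

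Usp18, the protease that removes ISG15 from proteins and restrains the type I interferon receptor, read 514, 608 and 601 in Tnfr+/+ air, 479, 528 and 506 at 24 h, 489, 515 and 331 at 48 h, and finally 332, 471 and 448 at 72 h. In Tnfr-/- mice it read 676, 501 and 475 in air, 532, 643 and 522 at 24 h, 391, 429 and 405 at 48 h, and finally 378, 401 and 525 at 72 h. In each genotype most arrays at 48 and 72 h were below all air arrays, while Tnfr+/+ 48 h replicate 2 and Tnfr-/- 72 h replicate 3 were within the air range. The average log2 difference was -0.40 (SE 0.11, limma adjusted p = 0.024), a fall of 1.32-fold. Usp18 lies on chromosome 6, as does Tnfrsf1a, and it is the tested gene that shares a chromosome with a disrupted gene.

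Gbp2 read 1340, 1340 and 1100 in Tnfr+/+ air, 917, 617 and 731 at 24 h, 755, 893 and 460 at 48 h, and finally 586, 650 and 789 at 72 h. In Tnfr-/- mice it read 1410, 836 and 1550 in air, 619, 777 and 734 at 24 h, 503, 496 and 392 at 48 h, and finally 612, 477 and 2680 at 72 h. Every O3 array of either genotype was below its air group except Tnfr-/- 72 h replicate 3, which was above all air arrays. The average log2 difference of late O3 was -0.90 (SE 0.27, limma adjusted p = 0.031), a fall of 1.87-fold, and the second Gbp2 probe set gave -0.70 (adjusted p = 0.047). Without that mouse, which was picked by these same genes, it was -1.10 (SE 0.16, limma adjusted p = 0.00017).

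Psmb9, an inducible catalytic subunit of the immunoproteasome, read 999, 987 and 655 in Tnfr+/+ air, 675, 498 and 634 at 24 h, 630, 694 and 744 at 48 h, and finally 463, 634 and 686 at 72 h. In Tnfr-/- mice it read 1060, 696 and 1100 in air, 672, 939 and 812 at 24 h, 501, 574 and 381 at 48 h, and finally 383, 469 and 1070 at 72 h. The wild-type O3 arrays overlapped the air arrays through air replicate 3, and the Tnfr-/- arrays at 48 h did not overlap air. The average log2 difference was -0.64 (SE 0.18, limma adjusted p = 0.029), a fall of 1.55-fold, and -0.75 (SE 0.14, adjusted p = 0.002) without Tnfr-/- O3 72 h replicate 3.

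**Figure D2:**
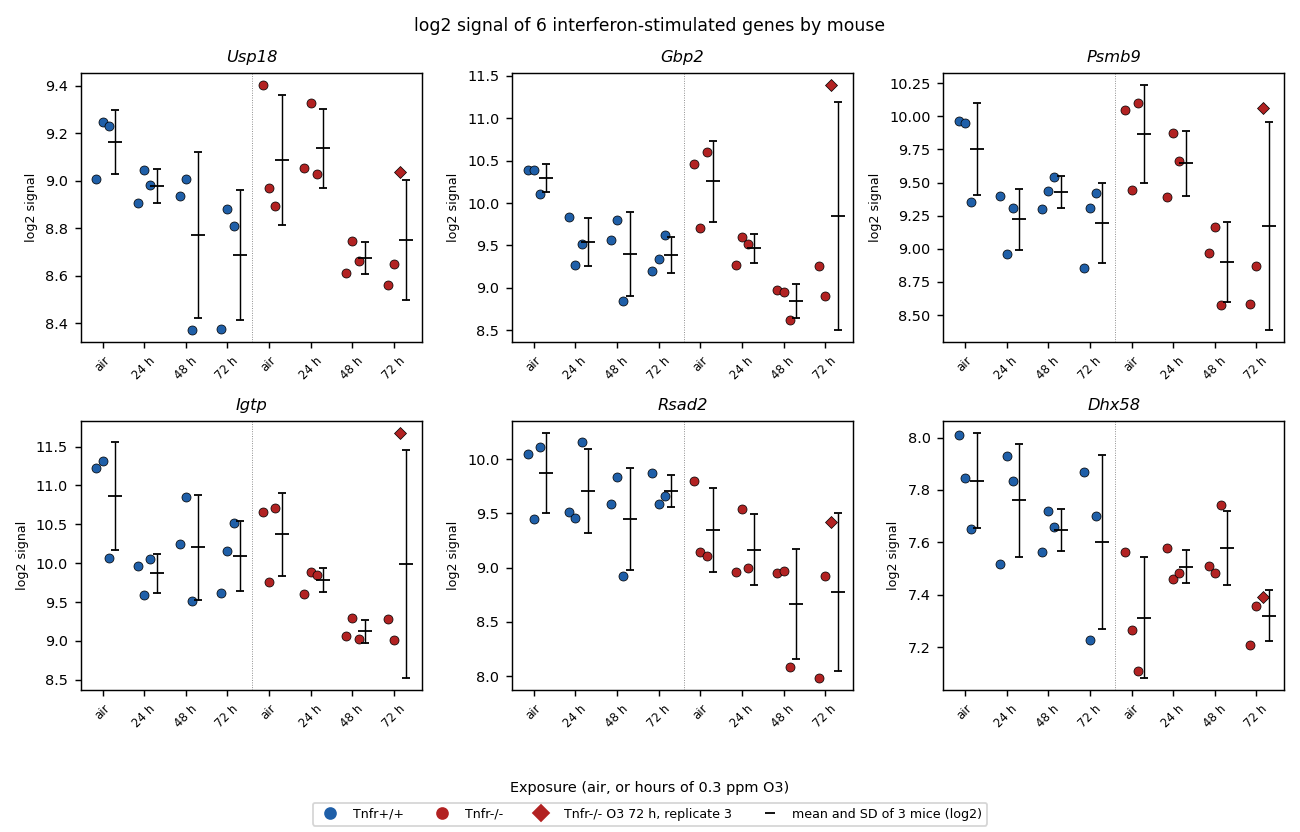
log2 signal (y axis) of 6 genes by exposure (x axis), with Tnfr+/+ mice in blue and Tnfr-/- mice in red, 1 point per mouse and bars for the mean and SD of 3 mice. Gbp2, Psmb9 and Igtp were low in all 3 Tnfr-/- mice at 48 h and in 2 of the 3 at 72 h, where the remaining mouse (diamond) was far above, at 2680 for Gbp2.

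Without Tnfr-/- O3 72 h replicate 3, the genes called lower in late O3 numbered 11 of 34 in place of 3 (background 5.3%), and none was called higher (background 6.16%). They were the antiviral Ifit2 and Rtp4, Usp18, the GTPases Gbp2, Gbp3, Irgm1, Igtp and Ifi47, and Tap1, Tap2 and Psmb9, and the median over the 34 genes was -0.26. Igtp read 2400, 2540 and 1070 in Tnfr+/+ air and 1610, 866 and 1670 in Tnfr-/- air. At 48 h it read 1210, 1850 and 731 in Tnfr+/+ mice and 533, 628 and 520 in Tnfr-/- mice, the latter all below air. Its log2 difference was -0.77 (SE 0.32, limma adjusted p = 0.13) with that mouse and -0.98 (SE 0.22, adjusted p = 0.0076) without it. Single air arrays also moved the count. It was 0 without Tnfr+/+ air replicate 2 or without Tnfr-/- air replicate 1, 1 without Tnfr+/+ air replicate 1 or 3 or Tnfr-/- air replicate 3, and 8 without Tnfr-/- air replicate 2.

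The antiviral effectors were less uniform than the GTPases. Ifit2, which binds viral RNA, had a log2 difference of -0.42 in late O3 (SE 0.15, limma adjusted p = 0.067), Rtp4 -0.43 (SE 0.16, 0.092), Rsad2 -0.46 (SE 0.21, 0.17) and Oasl2 -0.37 (SE 0.16, 0.14). Bst2, which tethers virions, was at 0.16 (95% interval -0.30 to 0.63), Ifit3 at 0.14 (-0.09 to 0.38), Eif2ak2, the kinase PKR, at 0.08 (-0.27 to 0.43) and Ifitm3, which blocks viral fusion, at 0.03 (-0.27 to 0.33). Their intervals include 0 and do not show that they were unchanged.

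Among transducers and feedback regulators Usp18 was the gene called. The transcription factors Irf1, Irf7, Irf8 and Irf9 had late O3 differences of -0.23, -0.18, -0.10 and -0.16, with limma adjusted p of 0.39, 0.36, 0.59 and 0.26. The RNA sensors Ifih1 and Dhx58 were at -0.05 and -0.04, and Stat2, part of the complex that binds the ISRE, at -0.09. Socs1, which inhibits the receptor kinases, was at 0.12 with an interval of -0.34 to 0.57. In antigen processing, the peptide transporter genes Tap1 and Tap2 were at -0.52 and -0.31 (limma adjusted p = 0.11 and 0.099), and the immunoproteasome genes Psmb8 and Psmb10 at -0.04 and -0.18. The other 2 tested probe sets of Tap1 had differences of 0.17 and 0.71, neither called, and a further probe set did not pass the filter.

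**Figure D3:**
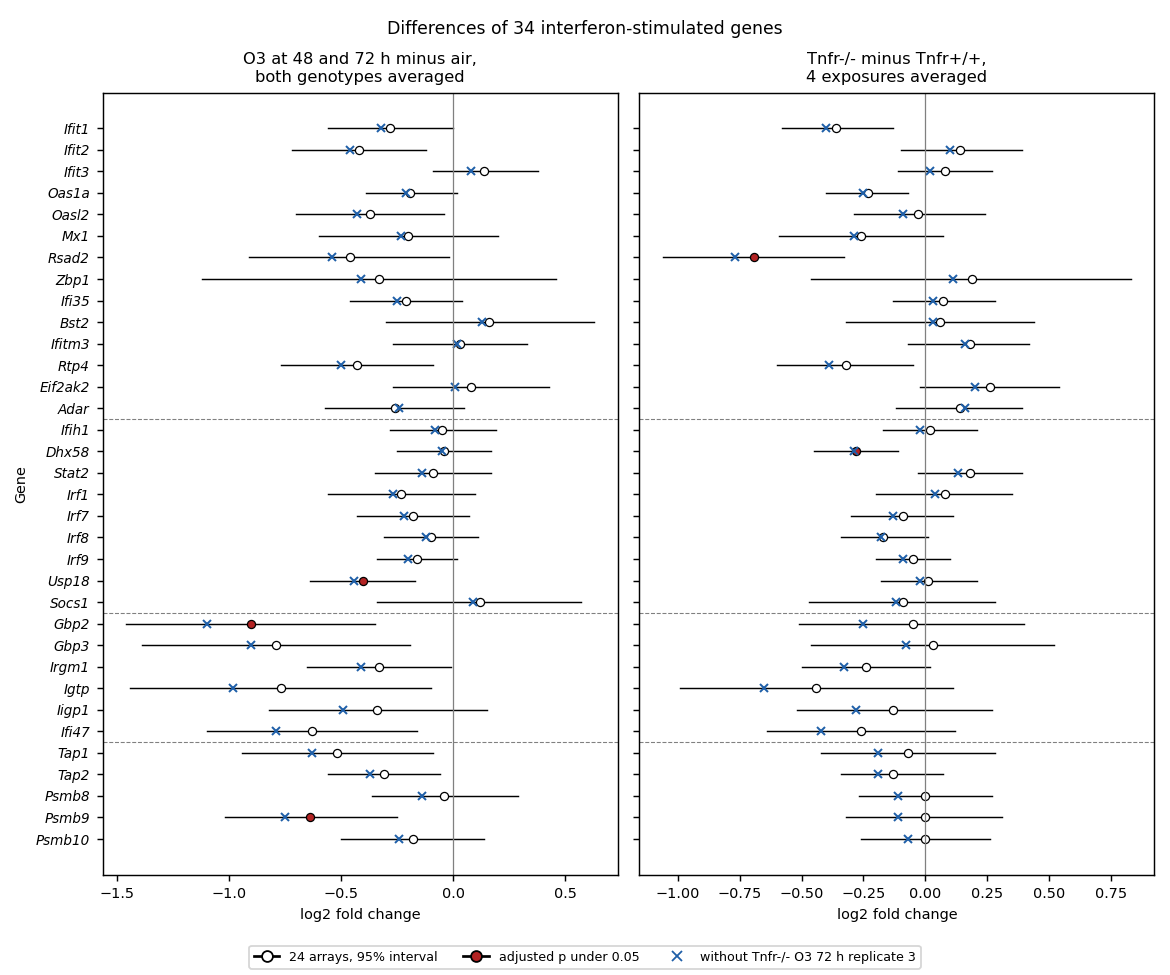
log2 fold change (x axis) of the 34 genes (rows) in late O3 against air (left) and in Tnfr-/- against Tnfr+/+ mice (right), with 95% intervals from all 24 arrays, red points for an adjusted p under 0.05 and crosses for the value without Tnfr-/- O3 72 h replicate 3. Most points of the left panel are below 0, with Gbp2 lowest at -0.90, and the crosses of the GTPases lie further left.

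The next question was whether the genotypes differed. In air, at 24, 48 and 72 h no gene was called, with backgrounds of 0.0341%, 0.419%, 0.0682% and 0.0438% lower and 0.0536%, 0.584%, 0.0974% and 0.117% higher. At an unadjusted p under 0.05, Stat2 was higher (background 3.3%) and Dhx58 lower (3.62%) in Tnfr-/- air, and Adar was higher (7.07%) and none lower (6.98%) at 24 h. At 48 h 4 genes were lower (Rsad2, Irf8, Irgm1 and Ifi47, background 5.03%) and at 72 h 3 (Oas1a, Rsad2 and Irf8, background 5.25%), with none higher (5.74% and 5.81%). The t-test at 0.05 counted 3, 2, 8 and 0 of the 34 genes in either direction, against 8.41%, 14.4%, 10.1% and 5.61% of all probe sets, and 0 of the 34 after adjustment. At 48 h the Tnfr-/- arrays were all below the Tnfr+/+ arrays for 9 genes (26.5%, background 9.07%): Rtp4, Irf8, Irf9, Igtp, Iigp1, Ifi47, Tap1, Psmb8 and Psmb9, and all above for Eif2ak2 (2.94%, background 9.96%). At 24 h they were all above for 5, Ifit3, Irf8, Tap1, Psmb8 and Psmb10 (14.7%, background 12%), and all below for Ifit1 (2.94%, background 11.1%). In air they were all above for 3, Ifit2, Ifih1 and Stat2 (8.82%, background 7.82%), and all below for 2, Zbp1 and Dhx58 (5.88%, background 7.54%). At 72 h they were all below for 3, Oas1a, Rsad2 and Irf8 (8.82%, background 6.85%), and all above for none (background 6.14%).

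By size, the lowest genotype differences in air were Zbp1 (-0.58), Rsad2 (-0.52) and Dhx58 (-0.52), and the highest Ifit2 (0.49), Stat2 (0.42) and Ifih1 (0.37). At 24 h they were Rsad2 (-0.54), Ifit1 (-0.45) and Irgm1 (-0.42), and Adar (0.54), Bst2 (0.53) and Psmb8 (0.45). At 48 h they were Igtp (-1.08), Ifi47 (-0.90) and Rsad2 (-0.78), and Zbp1 (0.92), Eif2ak2 (0.42) and Ifitm3 (0.29). At 72 h they were Rsad2 (-0.93), Mx1 (-0.54) and Rtp4 (-0.50), and Gbp2 (0.46), Ifitm3 (0.40) and Irf1 (0.33). Rsad2 was among the 3 lowest each time. At 72 h the median over the 34 genes was -0.04 (19 below 0) with all arrays and -0.33 (30 below 0, again 0 called) without Tnfr-/- O3 72 h replicate 3. The sign for Gbp2 at 72 h came from 1 mouse and was -0.31 without it, and that for Zbp1 at 48 h came from the Tnfr+/+ mouse named above and was -0.15 without it.

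Averaged over the 4 exposures, 2 genes were called lower in Tnfr-/- mice and 0 higher (5.88% lower, background 2.47%, and 0 higher, background 3.17%). At an unadjusted p under 0.05, 5 were lower (Ifit1, Oas1a, Rsad2, Rtp4 and Dhx58, 14.7%, background 11.1%) and 0 higher (background 11.5%). Rsad2, or viperin, which makes a chain-terminating nucleotide, read 1060, 699 and 1110 in Tnfr+/+ air, 729, 705 and 1140 at 24 h, 768, 916 and 486 at 48 h, and finally 936, 771 and 808 at 72 h. In Tnfr-/- mice it read 891, 566 and 551 in air, 499, 745 and 510 at 24 h, 494, 500 and 271 at 48 h, and finally 253, 486 and 685 at 72 h. Most Tnfr-/- arrays were below most Tnfr+/+ arrays of the same exposure, and the groups were separate at 72 h. The log2 difference was -0.69 (SE 0.17, limma adjusted p = 0.025), 1.62-fold. Its other probe sets gave -0.74 (adjusted p = 0.0013) and -0.41 (adjusted p = 0.072).

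Dhx58, which encodes the RNA helicase LGP2, a regulator of RNA sensing, read 258, 230 and 201 in Tnfr+/+ air, 183, 244 and 228 at 24 h, 189, 211 and 202 at 48 h, and finally 234, 150 and 208 at 72 h. In Tnfr-/- mice it read 189, 154 and 138 in air, 191, 176 and 179 at 24 h, 182, 179 and 214 at 48 h, and finally 148, 164 and 168 at 72 h. The groups were separate in air and overlapped at the other exposures. The log2 difference was -0.28 (SE 0.08, limma adjusted p = 0.047), 1.22-fold, at the edge of the threshold. Dhx58 had 3 probe sets, of which only the probe set used here passed the filter. The lowest other differences were Igtp (-0.44, SE 0.26, adjusted p = 0.33) and Ifit1 (-0.36, SE 0.11, adjusted p = 0.059), and the highest Eif2ak2 (0.26), Zbp1 (0.19) and Stat2 (0.18). Without Tnfr-/- O3 72 h replicate 3, 4 genes were called lower (background 2.17%) and 0 higher (background 2.53%). The lower genes were Rsad2, Ifit1 (adjusted p = 0.043), Igtp (0.049) and Ifi47 (0.031), while Dhx58 had an adjusted p of 0.058. The median over the 34 genes was -0.04 with all arrays and -0.11 without this mouse, against -0.01 over all probe sets in both.

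Whether O3 acted differently in the genotypes was tested by the interaction. No gene was called at 24, 48 or 72 h (limma; 0 to 0.00974% of all probe sets in either direction), with lowest adjusted p of 0.77, 0.90 and 0.87. At an unadjusted p under 0.05 the count was 1 (Ifih1 at 24 h, which detects viral RNA, -0.57, background 3.13% lower), 0 and 0. The ordinary t-test was not defined for it. The median interaction over the 34 genes was 0.12 at 24 h, -0.25 at 48 h and -0.10 at 72 h, and -0.34 at 72 h without the outlying mouse, again with 0 called. The extremes at 24 h were Ifih1 (-0.57), Ifit2 (-0.39) and Mx1 (-0.39) below and Zbp1 (0.95), Psmb8 (0.49) and Adar (0.49) above. At 48 h they were Ifi47 (-0.73), Mx1 (-0.68) and Psmb9 (-0.63), and Zbp1 (1.51), Dhx58 (0.46) and Ifitm3 (0.43). At 72 h they were Mx1 (-0.73), Ifit2 (-0.49) and Rsad2 (-0.41), and Zbp1 (0.62), Ifitm3 (0.55) and Gbp2 (0.50). The median interval reached 0.75 to either side, so the larger shift seen in Tnfr-/- mice at 48 h was not shown to differ from that in wild type.

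Few genes upstream of the list were called in late O3 or in the genotype average. Of 15 tested genes for interferons, their receptors and kinases, 0 were called in late O3 (backgrounds 5.65% lower and 6.51% higher). Averaged over the 4 exposures, 2 were called lower in Tnfr-/- mice (background 2.47%). They were Ifnb1 (-0.32, SE 0.07, limma adjusted p = 0.0092) and Ifnar1 (-0.25, SE 0.07, 0.044). Ifnb1 read 61.2 to 117 over the 24 arrays. Ifng, whose product induces the GTPases, had a log2 difference of -0.65 in late O3 (SE 0.38, limma adjusted p = 0.29). In Tnfr-/- mice at 48 h the Ifng difference from air was -1.25 (SE 0.62, limma adjusted p = 0.29). Its signals of 6.57 to 76.9 were low and partly within the range at which Mx2 was not tested. Of 9 tested upstream sensors and adaptors, Myd88, the adaptor of Toll-like receptors, was called higher in late O3 (0.33, SE 0.08, limma adjusted p = 0.0071). It was also called higher in Tnfr-/- mice at 48 h (0.48, limma adjusted p = 0.035). The backgrounds of higher calls were 6.51% and 2.6%.

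Of 40 other interferon-induced genes tested, 6 were called lower (15%, background 5.65%) and 1 higher (2.5%, background 6.51%) in late O3. The lower genes were Trim25 (-0.48, limma adjusted p = 0.00044), a ubiquitin ligase of RNA sensing, Parp14 (-0.40, 0.0026), Trim21 (-0.44, 0.0032), Tapbp (-0.37, 0.01), which loads peptide on MHC class I, Cmpk2 (-0.46, 0.019), the neighbour of Rsad2, and Gbp7 (-0.75, 0.049). The higher gene was Ifi30 (0.60, adjusted p = 0.00037), a lysosomal thiol reductase also made constitutively by macrophages and other antigen-presenting cells. Their median was -0.20 with 33 of 40 below 0. Trim25 was also called lower at 72 h in Tnfr+/+ mice (-0.57, adjusted p = 0.018) and at 48 and 72 h in Tnfr-/- mice (-0.48 and -0.51, adjusted p = 0.04 and 0.028). Parp14 and Trim21 were called lower in Tnfr-/- mice at 48 h (-0.64 each, adjusted p = 0.0072 and 0.019).

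Several, but not all, lists of markers of cells that could carry these transcripts moved too. In late O3 the backgrounds were 5.65% called lower and 6.51% called higher. The 9 tested NK and cytotoxic markers had a median log2 difference of -0.30 (9 of 9 below 0, 1 called, Ncr1). The 12 B cell markers were at -0.28 (12 of 12 below 0), with Cd37 called lower (-0.80, limma adjusted p = 0.02). The 11 T cell markers were at -0.21 (10 of 11), with Thy1 called lower (-0.37, limma adjusted p = 0.018). The 12 endothelial markers were at -0.29 (12 of 12, 5 called). The 12 alveolar macrophage markers had a median of 0.57 (12 of 12 above 0, 5 called). The 11 neutrophil markers had a median of -0.08, with Lcn2 called higher (1.92, limma adjusted p = 2.7e-08). The 12 monocyte and interstitial macrophage markers had a median of 0.07 (8 of 12 above 0), with Csf1r called lower (-0.32, limma adjusted p = 0.008). The 9 dendritic and plasmacytoid cell markers had a median of 0 (5 of 9 below 0), with Tcf4 called lower (-0.34) and Itgax higher (0.33). Between genotypes, averaged over the 4 exposures, the T cell markers had a median of -0.16 (9 of 11 below 0), with Cd3d called lower (-1.45, limma adjusted p = 0.00089). The B cell markers were at 0.14 (9 of 12 above 0), with Cd79a and Fcer2a called higher (0.54 and 0.47, background 3.17%). The NK and cytotoxic markers were lower in Tnfr-/- mice, with a median of -0.47 (9 of 9 below 0, 5 called, background 2.47%, Gzma at -1.19). Their summed signal was 2570 to 3430 in Tnfr+/+ air, 1470 to 1870 in Tnfr-/- air, 1080 to 1240 in Tnfr-/- mice at 48 h and 1240 to 2550 in Tnfr-/- mice at 72 h. The summed signal of the 6 GTPases was 5200 to 8210 in Tnfr+/+ air and 4230 to 7410 in Tnfr-/- air. In Tnfr-/- mice it was 2680 to 3110 at 48 h and 3010 to 12300 at 72 h. Liver markers, which lung should hold at low levels, also moved with the groups. Their summed signal was 1130 to 2670 in Tnfr+/+ air, 553 to 1010 in Tnfr-/- air and 647 to 1030 at 48 h over both genotypes, and the 9 tested had medians of -0.45 in late O3 (8 of 9 below 0, Alb and Apoa1 called lower and Fgg higher) and -0.58 in Tnfr-/- mice (9 of 9). The part of any of these cells in the levels of the interferon-stimulated genes was not tested.

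**Figure D4:**
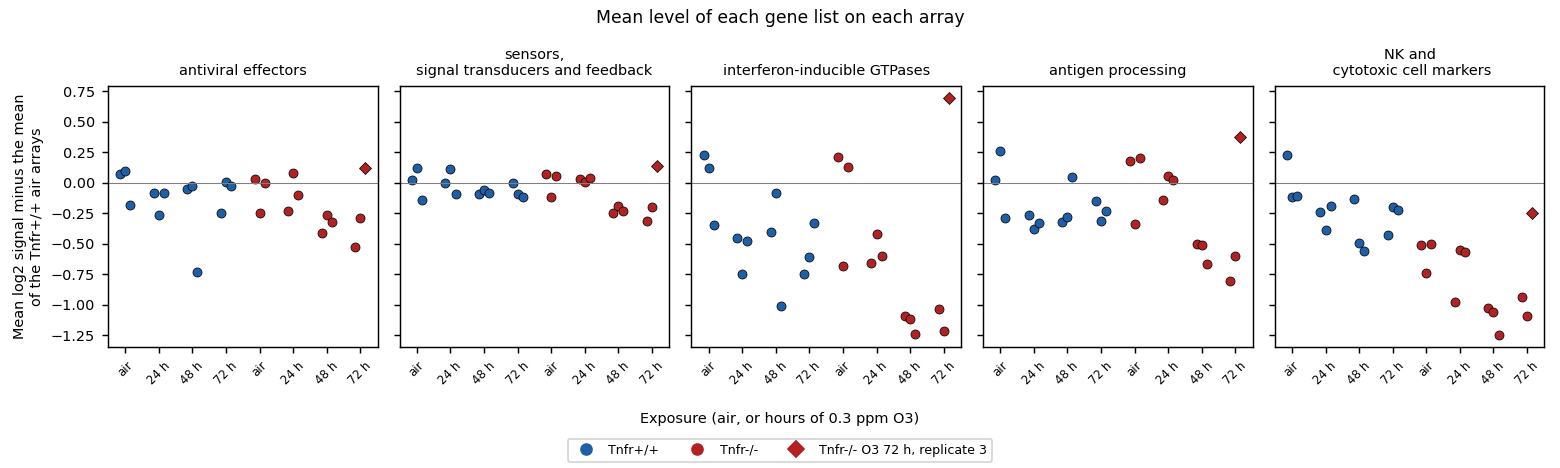
Mean log2 signal of each role, and of 9 NK and cytotoxic cell markers, minus the mean of the Tnfr+/+ air arrays (y axis) by exposure (x axis), 1 point per mouse, Tnfr+/+ in blue and Tnfr-/- in red. The GTPase mean lies between -1.24 and -1.09 in Tnfr-/- mice at 48 h, at -1.22 and -1.04 in 2 mice at 72 h and at 0.70 in the third (diamond).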

How the data were processed

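RNA of lung tissue from 24 mice, 3 in each of 8 groups, was measured on Affymetrix MOE430A arrays. The deposited values are linear signal intensities, made by the authors with MAS5 in Affymetrix Expression Console per the submitters' processing notes. Versions are not given in the sources used here. Groups were taken from the sample labels. Here the intensities were floored at 1, quantile normalized and put on the log2 scale. The 64 control probe sets were left out, and a probe set was kept where at least 1 array reached the 20th percentile (20537 of 22644). Probe sets were named through the platform annotation, in which 20338 had 1 gene, 691 several and 1551 none. The 15 comparisons were fitted with limma 3.58.1 in R 4.3.3 (lmFit, contrasts.fit, eBayes) over all 24 arrays with a mean per group, and p-values were adjusted by Benjamini-Hochberg over all probe sets. The script was tested on simulated data. Intervals are 95%. The methods' t-test (equal variances) was run on the same values, at the threshold the methods give for O3 exposure in wild type (0.01) and for genotype in air (0.05), here also for the other comparisons of each kind. The number of arrays limits the precision, and p-values measure the spread between these mice. Genes and lists were chosen with earlier results of these data known. Called genes are given with full values, and where fewer than 3 were called, the 3 highest and 3 lowest differences are given. Alternatives were the deposited scale, cyclic loess, no filter, a pseudocount of 32, the groups' own arrays, the mean of all probe sets of a gene, a replicate block and leaving out each array. Alternatives that leave out the arrays that stood apart together, or one of them from the shared spread, were chosen after seeing the data. Each array was left out in turn, but the weight given to Tnfr-/- O3 72 h replicate 3 was also chosen after seeing its values.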

Additional observations from a re-analysis of the deposited data

How the results depend on the processing

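Each called gene kept its sign in the comparison that called it under every alternative run, but several calls lay near the threshold. In the genotype average Dhx58 was lost, leaving 1 gene, with the signals as deposited (limma adjusted p = 0.055), cyclic loess (0.052), no filter (0.054), a pseudocount of 32 (0.05) and the replicate block (0.061). Leaving out single arrays gave 1 to 4 genes there, 0 to 11 in late O3, 0 to 3 in Tnfr-/- mice at 72 h and, for arrays of the groups compared, 0 in the other comparisons. With the arrays of the groups alone, late O3 gave 0 genes (limma adjusted p of 0.051 to 0.065 for Usp18, Psmb9 and Gbp2) and Tnfr-/- mice at 48 h gave 1. Without Tnfr+/+ O3 72 h replicate 1 and Tnfr-/- O3 72 h replicate 3 together, the counts were 4 at 48 h and 3 at 72 h in Tnfr-/- mice and 10 in late O3, and without the latter in the shared spread 3 at 48 h. Replicate numbers did not pair the mice (same-number correlations of -0.078 to 0.11), and the replicate block changed no other count, with 3 genes in late O3.

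Some signs turned in comparisons that did not call the gene, including those of Gbp2 and Rsad2. The mean of all probe sets gave Stat2 -0.06 (Tnfr+/+ 72 h) and Rsad2 0.02 (interaction at 72 h). Leaving out single mice of the groups compared, the values ran from -0.01 to 0.44 for Socs1 (Tnfr+/+ 48 h), -0.01 to 0.48 for Bst2 (Tnfr-/- 72 h), -0.15 to 1.57 for Zbp1 (genotype at 48 h) and -0.08 to 0.35 (genotype average), -0.08 to 0.56 for Irf1 (genotype at 72 h), and -0.31 to 0.93 (genotype at 72 h) and -0.27 to 0.97 (interaction at 72 h) for Gbp2. Without both mice named above, Irf1 was -0.24, and Gbp2 -0.41 and -0.37. The cause was not tested. With 3 mice a group, the median unadjusted interval of a gene reached 0.53 to either side on the log2 scale between single groups. This is not a limit of detection after adjustment, since Gbp2 at -1.41 in Tnfr-/- mice at 48 h went uncalled with all arrays. In the averaged comparisons the median interval reached 0.26 (genotype) and 0.32 (late O3). Differences under 0.53 were called there, such as those of Dhx58 and Usp18.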
